A study of Mus musculus with 2 samples.

Results

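The 10 genes Hk1, Hk2, Pfkl, Pfkm, Pfkp, Aldoa, Aldoc, Pgk1, Pkm and Ldha encode enzymes of glycolysis, several of them alternative forms (isoforms) of 1 step. They were chosen by name, as all probe sets (groups of short probes for 1 transcript) that the array annotation gives to these symbols alone. All 10 were found, through 19 probe sets, among 12393 genes with a single symbol. They were compared between primitive haematopoietic stem cells (HSC), 1 array, and maturing HSC, 1 array, both sorted by flow cytometry from mouse bone marrow after 30 min of culture and neither of them treated. The labels give neither the surface markers used for the sort nor the strain, age and number of the mice. Each array was hybridised with transcripts of a cloned cDNA library made from the RNA of its population, after PCR amplification and size fractionation.

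Glycolysis breaks glucose down to pyruvate in the cytosol, giving ATP without oxygen, and lactate dehydrogenase can then turn pyruvate into lactate. Hexokinases trap glucose as its phosphate, phosphofructokinases commit it to the pathway, aldolases split the sugar, and phosphoglycerate kinase and pyruvate kinase make ATP. HSC in the bone marrow are known for a strong use of glycolysis. Several of these genes are known targets of the hypoxia-inducible factor HIF-1.

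Stretches upstream of the transcription start are shown for 3 genes with lower values in primitive HSC and for Aldoc, the gene with the highest ratio, because HIF-1 is known to bind the letters ACGTG. These 4 genes were chosen with the ratios known, and the 3 are not those with the lowest log2 ratios. On the brightest probe set of each gene, Pkm, at -1.46, Aldoa, at -0.50, and Pfkl, at -0.47, were lower than Pgk1, at -0.40, and are not shown. That order depends on the probe set, as another one of Pgk1 stood at -1.76. The display therefore says nothing of how the letters relate to direction. They come from RefSeq (GRCm38.p6), run 5′ to 3′ on the gene's strand over the 250 bases before the start, and carry ACGTG, or its reverse complement CACGT, in capitals. The stretches are chr6:82774455-82774704 on the minus strand for Hk2, chrX:106186850-106187099 on the plus strand for Pgk1, chr7:46845554-46845803 on the plus strand for Ldha and chr11:78322823-78323072 on the plus strand for Aldoc.
Hk2: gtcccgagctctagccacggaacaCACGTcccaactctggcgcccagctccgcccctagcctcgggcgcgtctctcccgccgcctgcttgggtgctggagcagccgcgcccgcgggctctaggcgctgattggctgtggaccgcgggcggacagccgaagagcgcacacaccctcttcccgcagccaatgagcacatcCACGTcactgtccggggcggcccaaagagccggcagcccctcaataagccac
Pgk1: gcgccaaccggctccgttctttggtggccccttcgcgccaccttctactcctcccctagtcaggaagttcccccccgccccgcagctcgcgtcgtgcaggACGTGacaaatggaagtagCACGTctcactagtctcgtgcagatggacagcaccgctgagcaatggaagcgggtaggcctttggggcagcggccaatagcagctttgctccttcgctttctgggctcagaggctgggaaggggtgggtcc
Ldha: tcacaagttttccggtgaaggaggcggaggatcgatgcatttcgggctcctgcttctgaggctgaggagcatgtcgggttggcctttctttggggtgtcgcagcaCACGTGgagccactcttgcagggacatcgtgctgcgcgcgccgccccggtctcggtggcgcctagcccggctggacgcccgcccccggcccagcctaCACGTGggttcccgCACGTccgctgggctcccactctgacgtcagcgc
Aldoc: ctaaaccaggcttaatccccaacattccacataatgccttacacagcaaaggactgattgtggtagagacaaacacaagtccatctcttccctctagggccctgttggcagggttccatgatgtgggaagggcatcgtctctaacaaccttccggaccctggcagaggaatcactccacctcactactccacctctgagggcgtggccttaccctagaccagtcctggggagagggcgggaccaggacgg

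The stretches of Hk2 and Pgk1 hold the letters at 2 places each and that of Ldha at 3 places. In Ldha, 2 of the 3 places are CACGTG, an E-box, which reads the same on both strands and therefore also contains both forms of the shorter motif. The Aldoc stretch holds none, and its only match begins 28 bases past the start. Over windows of 250 bases before to 50 after each annotated start, 10 of the 19 windows of the 10 genes held ACGTG on either strand, 52.6%, against 19.6% of 32851 windows of all genes in the table. Among windows with at least 50% G and C the counts were 9 of 18, against 23.6% of all such windows. The letters were found in at least 1 window of 8 of the 10 genes, against 21.8% of the 27025 genes with a window. These shares are not adjusted for the number of windows of a gene. The 8 genes had ratios of both signs. The letters were absent from the windows of Pfkl, with a negative ratio, and of Pfkp, with a positive one. Counted as matches, of which an E-box gives 2, windows of Hk1 and Pfkm, with positive ratios, had up to 2 and 3. The Ldha window had 5 by that count. The ratios of Hk1, Pfkl, Pfkm and Pfkp did not keep their sign under every processing setting. A link between the letters and direction was not tested. The 2 CACGTG sites of Ldha and 1 in a Pfkm window were the only E-boxes, held by 2 of the 19 windows, against 7.15% of all windows. Windows of a gene can overlap, and a match of letters is a description, not a bound site.

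Values are MAS5 intensities, the signal that the array software computes for a probe set, in arbitrary units. Ratios are log2 of primitive over maturing, so a positive ratio means more signal in primitive HSC. Intensities under 441, the pooled median of all probe sets other than controls, were raised to that floor, and a ratio with 1 side at the floor is a bound. Each gene is represented by its brightest probe set unless stated. With 1 array a group there were no replicates, so no test was possible, and every value describes this pair of libraries only. In such bulk samples, fewer cells of a type and less RNA per cell cannot be told apart.

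The labels were checked against marker genes in both populations. Of 11 stem cell markers on the array, 10 were above the floor in primitive HSC and 10 in maturing HSC. Their summed intensity was 33977 in primitive HSC and 35671 in maturing HSC. Of the 11, 5 were higher in primitive HSC and 6 in maturing HSC, with a median log2 ratio of -0.01. As a set they did not tell the 2 arrays apart. Markers of other blood cells were present as well, in lists that mix genes of mature cells and of their precursors. Their summed intensity over 11 neutrophil and monocyte genes was 119606 in primitive HSC and 68280 in maturing HSC, although 6 of the 11 were higher in primitive HSC and 5 in maturing HSC, with a median log2 ratio of 0.13. Over 8 erythroid genes it was 37464 in primitive HSC and 36314 in maturing HSC, with Alas2, Car1 and Hba-a1 at the floor on both arrays. Over 6 T and natural killer cell genes it was 55087 in primitive HSC and 10371 in maturing HSC, with Cd3e and Cd3g at the floor on both. Over 6 B cell genes it was 1715 in primitive HSC and 4179 in maturing HSC, with Pax5 at the floor on both. Over the 2 multipotent progenitor genes, Flt3 and Cd48, it was 853 in primitive HSC and 3960 in maturing HSC, and over 4 megakaryocyte genes 6035 in primitive HSC and 6198 in maturing HSC. The part of such cells in the ratios of the 10 genes was not tested.

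**Figure D1:**
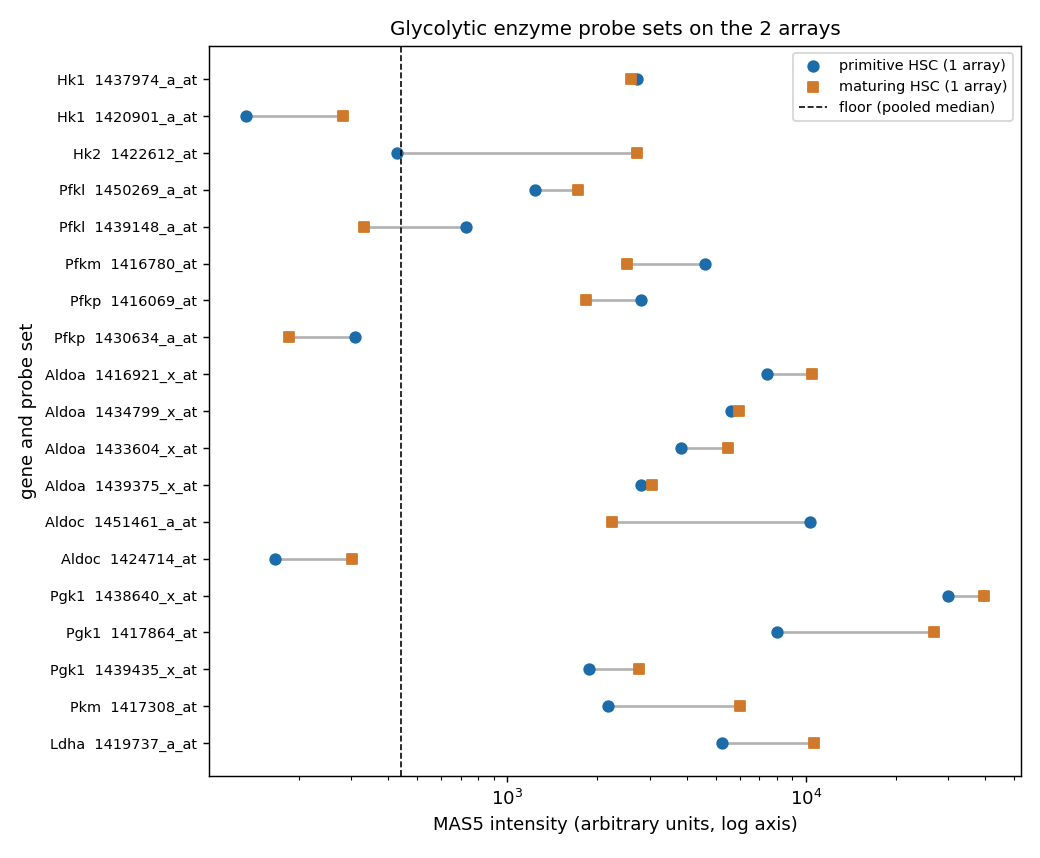
MAS5 intensity (arbitrary units, log axis) of the 19 probe sets of the 10 genes in primitive HSC (circles) and maturing HSC (squares), 1 array each, with the floor as a dashed line. Aldoc 1451461_a_at is far to the right in primitive HSC, and Hk2, Pgk1 1417864_at, Pkm and Ldha are to the right in maturing HSC.

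The 10 genes had ratios in both directions. Aldoc was 4.61-fold higher in primitive HSC. Hk2, at the other end, had a signal in maturing HSC at least 6.18-fold that in primitive HSC. Pkm and Ldha, at the end of the pathway, were 2.76-fold and 2.03-fold higher in maturing HSC. Pfkm and Pfkp were modestly higher in primitive HSC, at 1.82-fold and 1.53-fold, but scaling to the hybridisation controls turned both ratios negative. In all, 4 of the 10 genes had a positive ratio and 6 a negative one. Of the 8852 measured genes, 4664 had a positive ratio and 4188 a negative one. The median log2 ratio of the 10 genes was -0.43, against 0.07 over the 8852 measured genes.

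At 4-fold, 1 of the 10 genes was higher in primitive HSC, where 3.45% of all measured genes were, and 1 was higher in maturing HSC, where 4.69% were. At 2-fold the counts were 1 of 10, against 15.6% of all measured genes, and 3 of 10, against 17.6%. With 10 genes, 1 gene is 10% of the list, so these counts are no result about the list as a whole. The spread of the genes was wide, from -2.63 (a bound) for Hk2 to 2.20 for Aldoc.

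Hexokinase takes the first step, and its 2 forms differed. Hk1, the form found in most tissues, read 2729 in primitive HSC and 2603 in maturing HSC with probe set 1437974_a_at, a log2 ratio of 0.07 that was -0.02 with the median ratio set to 0 and -0.91 after scaling to the hybridisation controls. The 2 arrays thus gave Hk1 nearly the same signal. Its other single-symbol probe set, 1420901_a_at, read 134 in primitive HSC and 282 in maturing HSC, both under the floor. Hk2, the inducible form that is abundant in muscle and many tumours, read 428 in primitive HSC, just under the floor, and 2725 in maturing HSC.

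The log2 ratio of Hk2 was thus at most -2.63, and -2.67 on the intensities as they stand with no floor. Of the 8852 measured genes, 125 had a ratio or bound this low or lower, Hk2 included. Hk1 minus Hk2 in log2 ratio was at least 2.70, so the 2 hexokinases changed unequally by at least 6.48-fold, a bound on the log2 difference that was 1.48 with the floor at percentile 75. With that higher floor the Hk2 bound itself became -1.41, and the gene then no longer passed 4-fold.

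Phosphofructokinase makes the committed step as a tetramer of liver (Pfkl), muscle (Pfkm) and platelet (Pfkp) subunits. Pfkm read 4583 in primitive HSC and 2513 in maturing HSC (1416780_at), a log2 ratio of 0.87. Pfkp read 2806 in primitive HSC and 1831 in maturing HSC (1416069_at), a log2 ratio of 0.62, while its other probe set, 1430634_a_at, read 310 in primitive HSC and 186 in maturing HSC, both under the floor. Both subunits had more signal in primitive HSC, by less than 2-fold.

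Pfkl gave no single direction. Probe set 1450269_a_at read 1240 in primitive HSC and 1722 in maturing HSC, a log2 ratio of -0.47. Probe set 1439148_a_at read 728 in primitive HSC and 332, under the floor, in maturing HSC, a bound of 0.72. On the brighter probe set, Pfkm and Pfkp exceeded Pfkl in log2 ratio by 1.34 and 1.09, and with the median of each gene's probe sets by 0.74 and 0.49. For comparison, probe sets of the same gene differed with a pooled SD of 0.82 (log2 units) across the 1318 genes that had 2 or more above the floor on both arrays.

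The 2 aldolase genes had ratios of opposite sign. Aldoa, the form of muscle and most cells, read 7403 in primitive HSC and 10500 in maturing HSC with its brightest probe set, a log2 ratio of -0.50. Its 4 probe sets all had negative log2 ratios, between -0.52 and -0.09. All 4 carry the suffix _x_at, which marks probes that can bind other transcripts as well. Aldoc, the brain form of aldolase, read 10324 in primitive HSC and 2241 in maturing HSC with 1451461_a_at, a log2 ratio of 2.20. Of the 8852 measured genes, 226 had a ratio or bound this high or higher, Aldoc included.

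The Aldoc signal rests on 1 probe set. The second, 1424714_at, read 167 in primitive HSC and 303 in maturing HSC, both under the floor, so it gave no measured ratio. Aldoc minus Aldoa in log2 ratio was 2.71, a 6.54-fold unequal change, and stayed between 2.52 and 2.95 under the 9 alternative settings that gave both values. Scaling to the hybridisation controls lowered the Aldoc ratio to 1.23, under 4-fold but still positive.

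**Figure D2:**
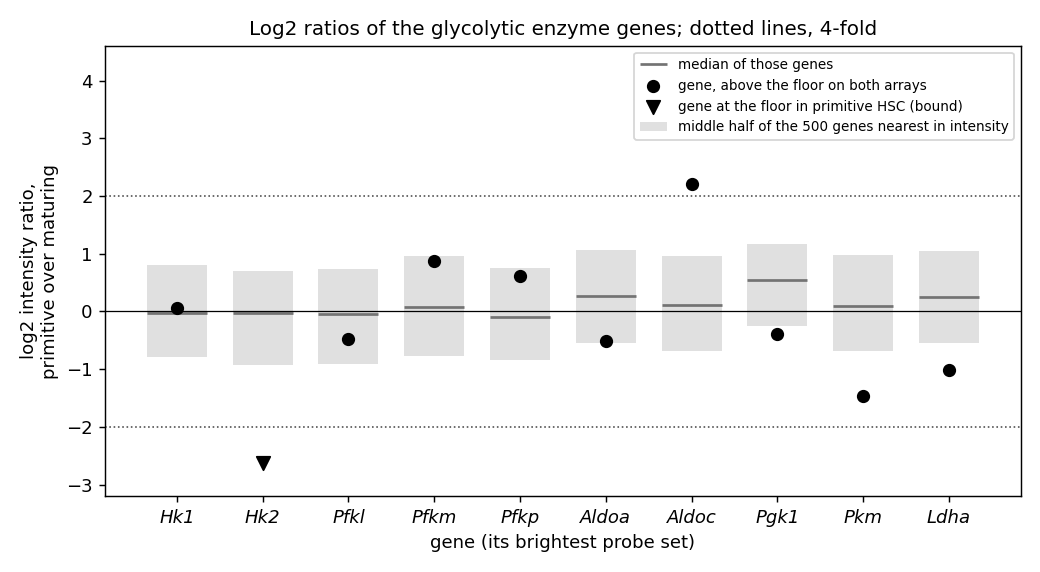
Log2 intensity ratio of primitive over maturing HSC for each of the 10 genes (circles; triangle, bound for Hk2), with the median (line) and middle 50% (grey bar) of the 500 genes nearest in intensity, and 4-fold as dotted lines. Aldoc lies above its bar at 2.20, and Hk2, Pgk1, Pkm and Ldha lie below theirs.

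Phosphoglycerate kinase (Pgk1) catalyses the first step of the pathway to make ATP. Its 3 probe sets were all lower in primitive HSC but by different amounts. Probe set 1438640_x_at read 29996 in primitive HSC and 39448 in maturing HSC, a log2 ratio of -0.40. Probe set 1417864_at, without the suffix for shared binding, read 7985 in primitive HSC and 26987 in maturing HSC, a log2 ratio of -1.76 or 3.38-fold higher in maturing HSC. Probe set 1439435_x_at read 1877 in primitive HSC and 2754 in maturing HSC, a log2 ratio of -0.55. The direction was thus shared, and the size depended on the probe set.

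Pyruvate kinase makes ATP and pyruvate in the last step of glycolysis, and the splice forms of Pkm are known to differ in activity. Pkm read 2180 in primitive HSC and 6008 in maturing HSC (1417308_at), a log2 ratio of -1.46. The annotation does not say which splice form this probe set reads. Ldha, the lactate dehydrogenase subunit typical of muscle, read 5255 in primitive HSC and 10652 in maturing HSC (1419737_a_at), a log2 ratio of -1.02. Both genes have a single probe set, and both ratios were negative under all 10 alternative settings.

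The 553 brightest of the 5525 genes with both intensities above the floor had a median log2 ratio of 0.53, so each gene was also set beside the 500 genes nearest to it in mean log2 intensity. Pgk1 stood at -0.40, where its neighbours had a median of 0.55 and a middle 50% from -0.26 to 1.16. Ldha stood at -1.02, against a middle 50% of -0.54 to 1.05, and Pkm at -1.46, against -0.69 to 0.97. Aldoa, at -0.50, lay inside its range of -0.54 to 1.06, as did Hk1, Pfkl, Pfkm and Pfkp in theirs. Aldoc, at 2.20, lay above its range of -0.68 to 0.95. Hk2, at a bound of -2.63, lay below its range of -0.92 to 0.71, though its neighbours were all above the floor on both arrays. Of the 10 genes, 4 were thus below and 1 was above the middle 50% of genes of like brightness. By definition 50% of the neighbouring genes lie outside that range, so these counts are no result about the list as a whole.

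The choice of scaling moved the whole list. The hybridisation controls, bacterial and phage transcripts that are usually added to each labelled sample in fixed amounts, gave more signal on the primitive array, with a median log2 ratio of 0.97 over 18 probe sets. Scaling to them left 1 gene (Aldoc) with a positive ratio and 9 with a negative one, with a list median of -1.41, against -0.74 over all measured genes, where it had been 0.07. Pkm then stood at -2.44 and Ldha at -1.99. Quantile normalization and lowess, which remove trends with brightness, took Pgk1 to -1.24 and -1.18. Aldoc, Hk2, Aldoa, Pgk1, Pkm and Ldha kept their sign under every alternative that gave a value, and Hk1, Pfkl, Pfkm and Pfkp did not.

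**Figure D3:**
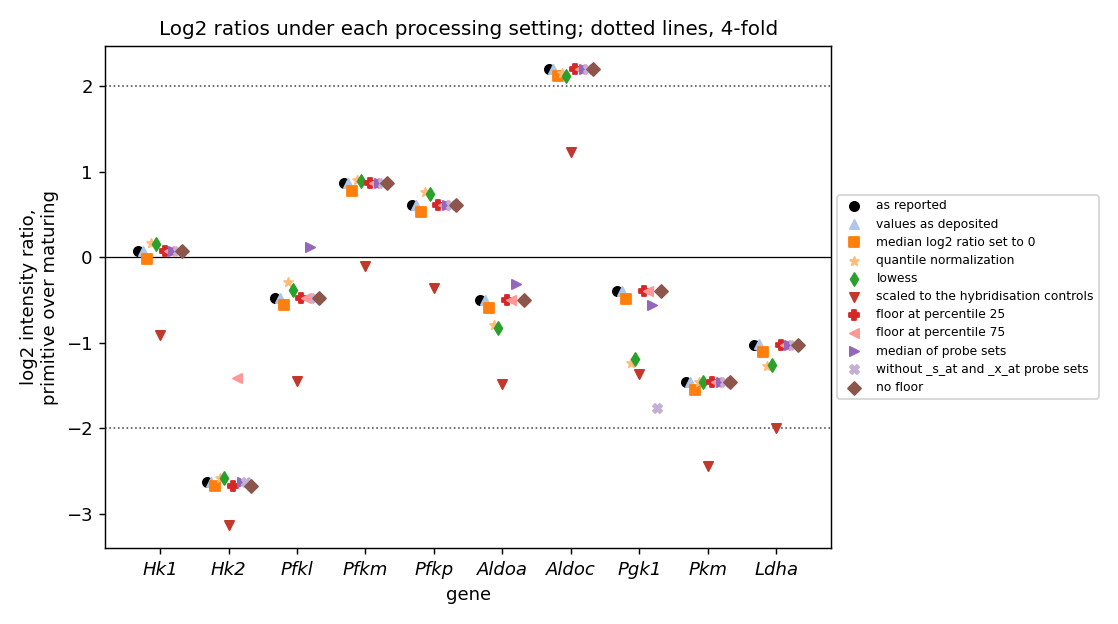
Log2 intensity ratio of primitive over maturing HSC for each of the 10 genes as reported (black circles) and under 10 other processing settings (other symbols), with 4-fold as dotted lines. Scaling to the hybridisation controls (red triangles) lies lowest for most genes, and Pgk1 varies with the probe set and with brightness correction.

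Of 19 other glycolytic genes, 13 had a single-symbol probe set and 8 were measured. Of the 8, 0 passed 4-fold in either direction and 1, Ldhb, passed 2-fold, toward primitive HSC. Over all measured genes, 3.45% passed 4-fold toward primitive HSC and 4.69% toward maturing HSC. At 2-fold these shares were 15.6% and 17.6%. Ldhb encodes the lactate dehydrogenase subunit typical of heart, which is known to favour the conversion of lactate to pyruvate. It read 13843 in primitive HSC and 4657 in maturing HSC, a log2 ratio of 1.57, and its 4 probe sets ran from 1.54 to 2.22. Scaling to the hybridisation controls lowered the ratio to 0.60, under 2-fold. Ldhb minus Ldha in log2 ratio was 2.59, a 6.03-fold unequal change between the 2 subunits, with 2.56 to 3.24 under the 10 alternative settings. The list median was 0.27, against -0.43 for the 10 genes.

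The lowest of this list was Adpgk, the ADP-dependent glucokinase gene, which read 459 in primitive HSC and 900 in maturing HSC, a log2 ratio of -0.97. Pklr, the liver and red cell pyruvate kinase gene, stood at -0.37, and Hkdc1 and Bpgm had bounds of 0.47 and 0.61, of which scaling to the hybridisation controls took Bpgm to -0.13. Between aldolase and pyruvate kinase, Tpi1 (triose phosphate isomerase) stood at -0.55, with 3 probe sets from -0.55 to -0.09, and Pgam1 (phosphoglycerate mutase) at 0.07, which scaling to the hybridisation controls took to -0.91. Eno2, the neuronal enolase, read 684 in primitive HSC and 488 in maturing HSC, a log2 ratio of 0.49 that the same scaling took to -0.49. Gapdh, whose product catalyses the step before Pgk1, had no single-symbol probe set besides controls. Its 3 control probe sets had log2 ratios of 0.61 to 0.69, and -0.36 to -0.29 after scaling to the hybridisation controls. Of the probe sets annotated to Gapdh and other symbols, 1418625_s_at stood at 0.83, and 1447999_x_at read 143, under the floor, in primitive HSC and 590 in maturing HSC. None of these Gapdh probe sets is counted in any list.

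Glucose entry was set beside the hexokinases. Slc2a1, the GLUT1 glucose transporter, read 457 in primitive HSC and 2732 in maturing HSC, a log2 ratio of -2.58, and its 3 probe sets all had negative log2 ratios, from -2.58 to -0.84. Slc2a3, the GLUT3 transporter, read 10780 in primitive HSC and 11215 in maturing HSC, a log2 ratio of -0.06. Its 3 measured probe sets ran from -0.55 to -0.02 (a bound). It is named here after its values were seen. Under the trimmed-mean scaling, Slc2a1 was the only 1 of 6 measured glucose and lactate transport genes at least 2-fold apart. Over all measured genes, 15.6% passed 2-fold toward primitive HSC and 17.6% toward maturing HSC, and 4.69% passed 4-fold toward maturing HSC. Scaling to the hybridisation controls took Slc2a3 to -1.03 and Bsg, from -0.36, to -1.34, both past 2-fold toward maturing HSC. The 4-fold call of Slc2a1 was lost with the median of its probe sets, -1.58, and with the floor at percentile 75, which gave a bound of -1.41. Like Hk2, Slc2a1 was near the floor in primitive HSC and well above it in maturing HSC.

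**Figure D4:**
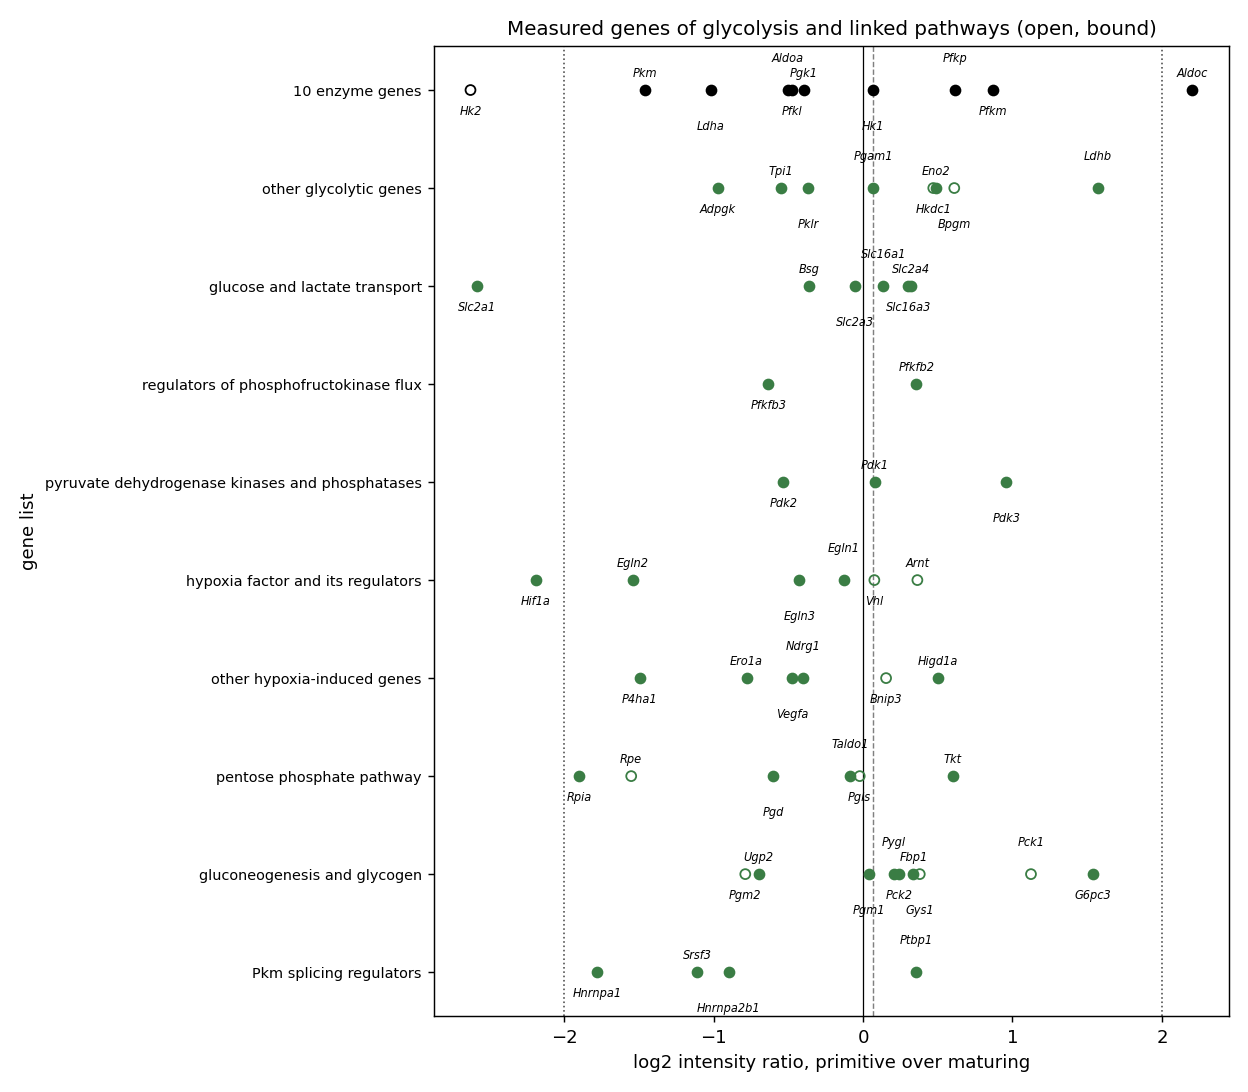
Log2 intensity ratio of primitive over maturing HSC for the measured genes among the 10 enzyme genes (black) and the lists of linked pathways (green), 1 array each; open circles are bounds, dotted lines mark 4-fold and the dashed line marks the median of all measured genes, 0.07. Slc2a1, Hif1a and Hk2 lie left of 4-fold and Aldoc alone lies right of it. The values are those of the trimmed-mean scaling.

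Hif1a, the oxygen-regulated subunit of HIF-1, read 702 in primitive HSC and 3199 in maturing HSC, a log2 ratio of -2.19. A second probe set gave a bound of -0.61 in the same direction, and the other 2 were under the floor on both arrays. Of 6 measured genes in the list of HIF and its regulators, 1 (Hif1a) passed 4-fold and 2 (Hif1a and the prolyl hydroxylase gene Egln2, at -1.54) passed 2-fold toward maturing HSC, where 4.69% and 17.6% of all measured genes did. The 4-fold call of Hif1a was lost with the median of its probe sets, -1.40, and with the floor at percentile 75, which gave a bound of -1.64. With that floor Egln2, which read 552 in primitive HSC, had a bound of -0.64, under 2-fold. Among 6 measured hypoxia-induced genes outside glycolysis, 1 passed 2-fold toward maturing HSC, near the 17.6% of all measured genes, and the list median was -0.44. It was the collagen hydroxylase gene P4ha1, at -1.50, whose second probe set read 987 in primitive HSC and 715 in maturing HSC, a log2 ratio of 0.47 in the opposite direction. The median of its probe sets, -0.52, did not pass 2-fold.

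Genes around the phosphofructokinase and pyruvate steps lay within 2-fold under the trimmed-mean scaling. Pfkfb3, whose product makes the activator of phosphofructokinase, stood at -0.63 and Pfkfb2 at 0.36, which became -0.62 after scaling to the hybridisation controls. Of the kinases that block pyruvate dehydrogenase, Pdk3 stood at 0.96, Pdk2 at -0.53 and Pdk1 at 0.08, and the same scaling took Pdk3 to -0.01 and Pdk1 to -0.89. It took Pfkfb3 to a bound of -1.51 and Pdk2 to one of -1.22, both past 2-fold toward maturing HSC. Of the 4 measured factors known to steer Pkm splicing, Hnrnpa1 stood at -1.78, Srsf3 at -1.11, Hnrnpa2b1 at -0.90 and Ptbp1 at 0.36. Their other measured probe sets differed in size or direction. Those of Srsf3 ran from -1.55 (a bound) to 2.06, those of Hnrnpa2b1 from -0.90 to 0.40 and those of Ptbp1 from -0.24 to 0.36, while a second one of Hnrnpa1 stood at -3.35. Scaling to the controls took Ptbp1 to -0.62.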

How the data were processed

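RNA of each population was turned into a cloned cDNA library whose inserts were transcribed into biotinylated cRNA for the array, per the labels' protocols. The deposited values are MAS5 signal intensities on a linear scale, per the submitters' processing notes, with the version not given in the sources used here. The 2% trimmed means were 1000.6 for the primitive and 1000.4 for the maturing array, so the deposited arrays had already been brought to 1 scale. Both were set to the same trimmed mean here. PCR, size fractionation and cloning can change the share of a transcript.

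Of 22690 probe sets, 64 were controls, 20380 others had 1 symbol in the platform annotation and 691 others had several, which were not used to name a gene. Symbols were checked against RefSeq through Entrez identifiers, and 0 changed. Of 12393 genes, 8852 were above the floor on at least 1 array and 5525 on both. The number of arrays limits the precision.

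The 10 genes and all lists were chosen with earlier results of these data known. All 10 genes and their probe sets are named, as are the measured genes of the other glycolytic list where they bear on them, and up to 4 genes of each linked list. With 2 arrays a pattern is a single ratio, so genes of like pattern are not named. The steps were tested on simulated data with known changes. Alternatives were other scalings, floors, thresholds and probe set rules. The work was done in Python 3.11.15 with pandas 2.3.3 and numpy 2.4.6, lowess came from statsmodels 0.14.6, and plots were drawn with matplotlib 3.10.9.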

Additional observations from a re-analysis of the deposited data

How the results depend on the processing

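The median log2 ratio of the 10 genes, -0.43, became -1.41 after scaling to the hybridisation controls, and that of the other glycolytic genes, 0.27, became -0.49. The single gene at least 4-fold higher in primitive HSC (Aldoc) became 0 after that scaling and at 8-fold. The single gene at least 4-fold higher in maturing HSC (Hk2) became 2 after that scaling (Hk2 and Pkm), 0 with the floor at percentile 75, 3 at 2-fold and 0 at 8-fold. For the other glycolytic genes, 0 at least 4-fold higher in primitive HSC became 1 with the floor at percentile 25 (Hkdc1), 1 when _s_at and _x_at probe sets were left out (Ldhb), 1 at 2-fold (Ldhb) and 1 with no floor (Hkdc1), the last setting chosen after seeing the data. Why they moved was not tested. The remaining 56 comparisons of these medians and counts with an alternative stayed within 1.5-fold of the reported value. For single genes, 85 of 99 did, and the other 14 included 9 from scaling to the hybridisation controls. With those probe sets left out, Aldoa gave no value. No paired analysis was possible because each group holds 1 array, so no replicate could be left out. Intensities under the floor of 441 limit Hk2 in primitive HSC and the second probe set of Pfkl in maturing HSC. They also limit the second probe sets of Hk1, Pfkp and Aldoc, on both arrays.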

Other observations

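The pentose phosphate pathway branches off after hexokinase and makes ribose and NADPH. Of its 6 measured genes, 5 had negative log2 ratios, as did 4188 of the 8852 measured genes, and 2 of the 6 passed 2-fold toward maturing HSC, where 17.6% of all measured genes did. Rpia, the ribose phosphate isomerase gene, read 485 in primitive HSC and 1807 in maturing HSC, a log2 ratio of -1.90, and Rpe, the epimerase gene, was under the floor in primitive HSC and at 1293 in maturing HSC, which bounds its log2 ratio at -1.55. With the floor at percentile 75 both were under 2-fold, at bounds of -0.82 for Rpia and -0.33 for Rpe. Tkt, the transketolase gene, read 22926 in primitive HSC and 15128 in maturing HSC, a log2 ratio of 0.60 that scaling to the hybridisation controls took to -0.37, and its second probe set stood at 0.16.

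In the list of gluconeogenesis and glycogen genes, 9 of 12 were measured and 2 passed 2-fold toward primitive HSC, where 15.6% of all measured genes did. Under the trimmed-mean scaling, 7 of the 9 had positive log2 ratios, as did 4664 of the 8852 measured genes. The 2 with negative ones were Pgm2, at a bound of -0.79, and Ugp2, at -0.70. G6pc3, a glucose-6-phosphatase gene whose product undoes the step of hexokinase, read 2433 in primitive HSC and 837 in maturing HSC, a log2 ratio of 1.54 that was 0.57 after scaling to the hybridisation controls. Pck1 read 961 in primitive HSC and was under the floor at 352 in maturing HSC, which bounds its log2 ratio at 1.12, or 0.48 after that scaling.

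A further probe set, 1436822_x_at, is annotated to Hk1 together with Rpl17 and related sequences, 6 symbols in all, and was therefore not used for Hk1. It read 77271 in primitive HSC and 37190 in maturing HSC, a log2 ratio of 1.06, against 0.07 for the single-symbol Hk1 probe set.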
